A study of Mus musculus with 30 samples.

Results

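The 10 genes described here encode the machinery with which cells present peptides on major histocompatibility complex (MHC) class II molecules. They were chosen by symbol from the 26264 genes listed in each count file, and all 10 were found and had enough counts to be tested. H2-Aa, H2-Ab1 and H2-Eb1 encode chains of the class II molecules themselves, Cd74 the invariant chain, H2-DMa and H2-DMb1 the peptide exchange factor, Ctss a lysosomal protease, Ciita the transcriptional coactivator of the pathway, and Cd80 and Cd86 the costimulatory ligands that accompany antigen.

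RNA was sequenced from mouse tibialis anterior, a muscle of the front of the lower leg, after surgical removal of a piece of it (volumetric muscle loss). The groups were females and males at 4, 7, 11 and 15 days after injury and uninjured females and males, with 3 libraries in each of the 10 groups and therefore 6 libraries at each time. Strain, genotype and age, whether libraries came from separate animals, and whether an uninjured muscle came from an injured mouse are not stated by the labels, so p-values measure the spread between these libraries. The libraries hold RNA of whole muscle, and fewer cells of a type and less RNA per cell cannot be told apart in them.

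Total counts were 13089999 to 57277336 per library, lowest at day 15 (13089999 to 30024528). Levels are given as CPM, counts scaled to library size and corrected by TMM factors, a scaling that balances the bulk of genes between libraries. TMM factors averaged 0.527 for uninjured libraries, 1.30 for day 4, 1.19 for day 7, 1.16 for day 11 and 1.08 for day 15. Summed over 8 mature muscle fibre markers, the level was 300311 to 439076 CPM in uninjured muscle, which fits the labelled tissue, and 8636 to 135760 CPM over all injured libraries. The library labelled female day 11 replicate 3 goes against its label: it held 0.109 CPM of Xist, against 83.0 to 1062 CPM in the other 14 libraries labelled female, and 57.4 CPM of the Y-linked Ddx3y, within the male-labelled range of 30.6 to 94.1 CPM. The library stayed in its labelled group. The lowest levels, fold changes and sex comparisons of day 11 are also given without it, and no day 11 ratio changed its call on leaving it out.

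MHC class II molecules display peptides from proteins that a cell has taken up, and CD4 T cells recognise them. Dendritic cells, macrophages and B cells carry them constitutively or after activation, whereas mature muscle fibres are not known for it. Alpha and beta chains pair in the endoplasmic reticulum around the invariant chain, which proteases including cathepsin S trim to a short peptide, and the H2-DM heterodimer exchanges that peptide for antigen. Transcription of the pathway depends on CIITA, which does not bind DNA itself but is held by the RFX complex at a promoter element called the X box and by NF-Y at the Y box.

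RefSeq promoter windows of 300 bases, from 250 before to 50 after the annotated start (GRCm38.p6), were at hand for 6 of the 10 genes. The 4 below are shown because they belong to genes whose time courses were close to each other (H2-Aa, H2-Eb1 and H2-DMb1) or far from them (Ctss). Capitals mark an X box-like match to CTNGNAAC, a Y box match to TGATTGG, or a match to GAAA, any 2 bases and GAAA again, the core of an interferon-stimulated response element. The letters of the motifs were chosen after these windows were read.
H2-Aa: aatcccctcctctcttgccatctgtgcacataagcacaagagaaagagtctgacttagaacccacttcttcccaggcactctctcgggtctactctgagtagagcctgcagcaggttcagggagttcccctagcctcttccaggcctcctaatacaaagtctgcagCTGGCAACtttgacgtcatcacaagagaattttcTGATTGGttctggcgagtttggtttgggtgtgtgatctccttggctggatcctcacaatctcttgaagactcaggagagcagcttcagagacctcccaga
H2-Eb1: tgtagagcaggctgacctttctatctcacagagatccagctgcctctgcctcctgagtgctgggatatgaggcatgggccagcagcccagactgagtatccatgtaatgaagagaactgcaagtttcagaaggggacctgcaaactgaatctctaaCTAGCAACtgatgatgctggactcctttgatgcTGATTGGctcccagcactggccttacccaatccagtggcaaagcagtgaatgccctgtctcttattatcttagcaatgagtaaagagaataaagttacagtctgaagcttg
H2-DMb1: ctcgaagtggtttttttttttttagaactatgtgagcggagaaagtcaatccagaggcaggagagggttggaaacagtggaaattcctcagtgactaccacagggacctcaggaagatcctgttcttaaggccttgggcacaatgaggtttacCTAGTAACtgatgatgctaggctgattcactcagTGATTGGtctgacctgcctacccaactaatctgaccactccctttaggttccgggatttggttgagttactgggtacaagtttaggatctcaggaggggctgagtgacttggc
Ctss: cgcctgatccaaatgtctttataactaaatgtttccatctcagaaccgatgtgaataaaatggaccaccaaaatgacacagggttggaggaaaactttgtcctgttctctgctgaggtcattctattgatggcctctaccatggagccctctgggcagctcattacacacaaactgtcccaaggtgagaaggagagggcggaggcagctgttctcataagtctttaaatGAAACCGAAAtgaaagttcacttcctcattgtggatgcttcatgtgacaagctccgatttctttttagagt

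The H2-Aa window lies at chr17:34287774-34288073 on the minus strand, the H2-Eb1 window at chr17:34305617-34305916 on the plus strand and the H2-DMb1 window at chr17:34152941-34153240 on the plus strand. In all 3 the X box-like match was followed by a Y box match, after 26 bases in H2-Aa, 25 in H2-Eb1 and 26 in H2-DMb1 (the X box-like match beginning 84, 94 and 97 bases before the start). Such a pair on the gene strand, at most 40 bases apart, was found in 17 of the 32851 mouse promoter windows (0.0517%), although the X letters alone occurred on either strand in 13.2% and the Y letters in 7.82%. The 17 include these 3 windows, which were read before the letters were chosen, so the share describes the pair and tests nothing. A link between the motifs and the time courses was not tested. The Ctss window, at chr3:95526536-95526835 on the plus strand, held neither pair member but had 1 match to the interferon-stimulated response element that began 21 bases before the start, a motif present in 3.44% of windows. No match to any of the 3 motifs was found in the windows of H2-DMa and Cd80, and no marked match overlapped another. H2-Ab1, Cd74, Ciita and Cd86 are named only. H2-Ab1, H2-Aa and H2-Eb1 are neighbours on chromosome 17, as are H2-DMa, H2-DMb2 and H2-DMb1, whereas Ciita, Cd86 and Cd80 lie on chromosome 16, Ctss on chromosome 3 and Cd74 on chromosome 18.

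All 10 genes were higher in injured than in uninjured muscle on each of the 4 days. At day 4 the log2 fold change ranged over 2.51 ± 0.28 (SE) for Ciita to 8.25 ± 0.66 for Ctss, with 6 injured and 6 uninjured libraries. In edgeR's quasi-likelihood test with Benjamini-Hochberg adjustment over 17136 tested genes the members' adjusted p was at most 3.68e-08 at day 4, 2.01e-07 at day 7, 3.96e-07 at day 11 and 2.14e-05 at day 15. Of all tested genes 40.1% were called higher at day 4, 41.6% at day 7, 42.7% at day 11 and 39.7% at day 15. The median log2 fold change of the 10 genes was 3.85, 3.66, 4.09 and 3.69 at days 4, 7, 11 and 15, against 0.17, 0.24, 0.32 and 0.26 over all tested genes. For all 10 genes every injured library lay above every uninjured one on each day, as did 31%, 24.9%, 25.8% and 24.1% of tested genes at days 4, 7, 11 and 15. With library size alone in place of TMM factors the median of all genes stood at 1.47, 1.42, 1.46 and 1.30, and the calls of all genes at day 4 split into 12603 higher and 1482 lower in place of 6864 and 5662. At days 7, 11 and 15 that split was 12665 and 1212, 12652 and 1385, and 11956 and 1360, against 7127 and 5132, 7319 and 5087, and 6809 and 5014 with TMM factors. The 10 genes were called higher under either scaling.

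**Figure D1:**
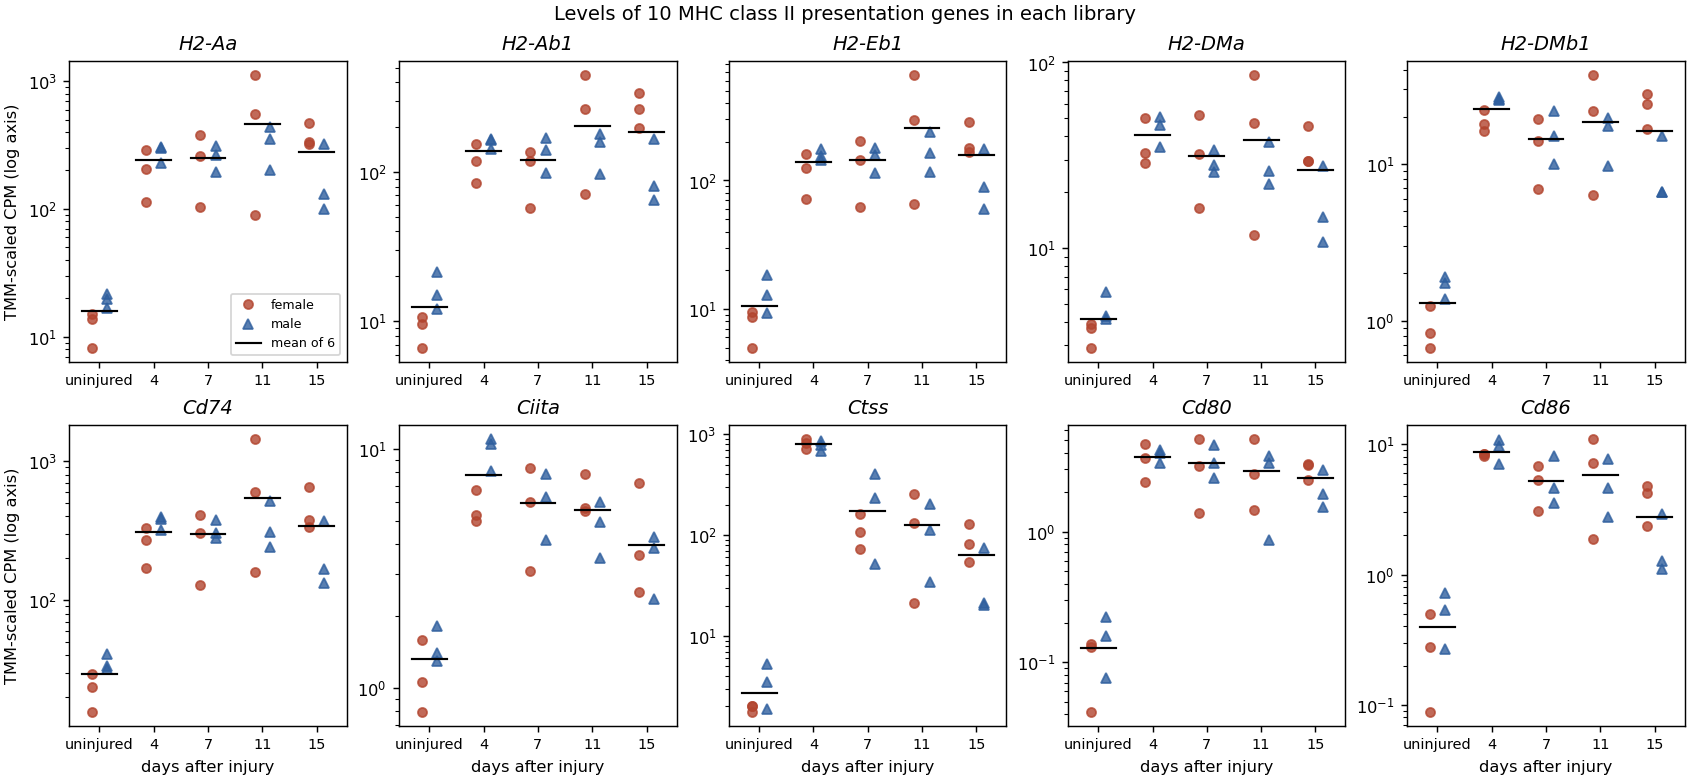
Level of each gene in each library, in CPM with TMM factors on a log axis, by time after injury (days). Circles are females, triangles males (3 libraries each) and bars means of 6; every injured library lies above every uninjured one in each panel, and in the Ctss panel the day 4 libraries, at 685 to 903 CPM, lie above those of all later days.

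The class II chains rose early and stayed high. H2-Ab1, the beta chain of I-A, had a lowest, median and highest level of 6.62, 11.4 and 21.4 CPM in uninjured muscle, 84.6, 149 and 167 CPM at day 4, 57.5, 127 and 168 CPM at day 7, 71.3, 169 and 448 CPM at day 11, and 65.0, 182 and 336 CPM at day 15. The libraries of the 4 injured days overlapped widely, and none reached down to the uninjured ones. Its log2 fold change against uninjured muscle was 3.51 ± 0.35 at day 4, 3.30 ± 0.35 at day 7, 4.01 ± 0.36 at day 11 and 3.79 ± 0.35 at day 15 (SE).

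H2-Aa, the alpha chain that pairs with H2-Ab1, stood at 8.17, 16.0 and 21.5 CPM (lowest, median, highest) in uninjured muscle, 113, 261 and 305 CPM at day 4, 103, 264 and 377 CPM at day 7, 90.5, 393 and 1122 CPM at day 11, and 99.9, 319.9 and 472 CPM at day 15. The spread was widest at day 11, where the lowest value was that of female replicate 3, the library that goes against its label, and the highest that of female replicate 2. Without female replicate 3 the day 11 mean of H2-Aa was 533 ± 353 CPM (SD, n = 5), and with it 459 ± 364 CPM (n = 6). Its log2 fold change was 3.94 ± 0.45, 4.03 ± 0.45, 4.83 ± 0.46 and 4.09 ± 0.45 at days 4, 7, 11 and 15.

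H2-Eb1, the beta chain of I-E, followed the same course, with 4.96, 9.36 and 18.3 CPM in uninjured muscle, 71.2, 151 and 175 CPM at day 4, 62.5, 151 and 205 CPM at day 7, 65.1, 199.7 and 666 CPM at day 11, and 59.6, 171 and 283 CPM at day 15. H2-Ea, which encodes the alpha chain of I-E and is known not to be transcribed in mice of some haplotypes, had 2 counts in 1 of 30 libraries. Cd74, whose product occupies the groove of newly made class II molecules, stood at 15.6, 30.8 and 40.9 CPM in uninjured muscle, 169, 324 and 398 CPM at day 4, 129, 305 and 412 CPM at day 7, 159, 410.4 and 1449 CPM at day 11, and 132, 355 and 647 CPM at day 15. Both genes were separated from uninjured muscle by a gap on every day, while their injured days overlapped. Their log2 fold changes at days 4, 7, 11 and 15 were 3.76 ± 0.42, 3.82 ± 0.42, 4.57 ± 0.44 and 3.89 ± 0.42 for H2-Eb1. For Cd74 they were 3.42 ± 0.40, 3.40 ± 0.40, 4.16 ± 0.41 and 3.48 ± 0.40.

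The subunits of the peptide exchanger H2-DM rose as well, with their largest fitted rise at day 4. H2-DMa stood at 2.90, 4.04 and 5.84 CPM in uninjured muscle, 28.8, 40.4 and 51.1 CPM at day 4, 16.4, 30.2 and 52.4 CPM at day 7, 11.8, 31.8 and 85.9 CPM at day 11, and 10.7, 28.6 and 45.6 CPM at day 15. H2-DMb1 stood at 0.667, 1.30 and 1.91 CPM in uninjured muscle, 16.2, 23.9 and 26.9 CPM at day 4, 6.92, 14.6 and 21.8 CPM at day 7, 6.30, 18.5 and 37.2 CPM at day 11, and 6.59, 16.0 and 28.1 CPM at day 15. Log2 fold changes at days 4, 7, 11 and 15 were 3.30 ± 0.35, 2.94 ± 0.35, 3.18 ± 0.35 and 2.60 ± 0.35 for H2-DMa, and 4.17 ± 0.37, 3.56 ± 0.36, 3.90 ± 0.37 and 3.58 ± 0.36 for H2-DMb1. H2-DMb1 and H2-DMb2 are closely similar neighbouring genes, and since no source states how shared reads were handled, the division of counts between them is uncertain.

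Ciita rose least of the 10 and declined over the days. Its level was 0.792, 1.35 and 1.82 CPM in uninjured muscle, 4.99, 7.39 and 11.0 CPM at day 4, 3.10, 6.15 and 8.36 CPM at day 7, 3.49, 5.58 and 7.87 CPM at day 11, and 2.35, 3.71 and 7.21 CPM at day 15. Its log2 fold change was 2.51 ± 0.28, 2.19 ± 0.28, 2.07 ± 0.28 and 1.58 ± 0.28 at days 4, 7, 11 and 15.

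Ctss, the protease that trims the invariant chain in antigen-presenting cells, rose most at day 4 and had a smaller fitted rise on each later day. With all 30 libraries the changes from day 7 to day 11 (-0.36, edgeR adjusted p = 0.963) and from day 11 to day 15 (-1.12, edgeR adjusted p = 0.201) were not called. It stood at 1.76, 2.01 and 5.21 CPM in uninjured muscle, 685, 803 and 903 CPM at day 4, 52.2, 135 and 402 CPM at day 7, 21.2, 122 and 256 CPM at day 11, and 20.3, 64.4 and 128 CPM at day 15. The day 4 libraries lay together and apart from those of every later day. Its log2 fold change was 8.25 ± 0.66 at day 4, larger than that of 99.3% of tested genes, then 5.95 ± 0.60 at day 7, 5.59 ± 0.59 at day 11 and 4.48 ± 0.56 at day 15.

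The costimulatory ligands, which deliver the second signal to T cells through CD28, were near the limit of detection in uninjured muscle. Cd80 had 18 counts over the 6 uninjured libraries, 7 in females and 11 in males, and stood at 0.0417, 0.135 and 0.222 CPM. In injured muscle it stood at 2.41, 3.83 and 4.67 CPM at day 4, 1.38, 3.28 and 5.08 CPM at day 7, 0.856, 3.04 and 5.14 CPM at day 11, and 1.54, 2.73 and 3.27 CPM at day 15. Because the uninjured level rests on so few counts, the pooled ratio is given with its 95% interval for counting error alone: 29.7 (18.7 to 50.3) at day 4 and 20.3 (12.7 to 34.7) at day 15. Low counts were mostly even, which is what counting each mate of a read pair would give, so these intervals are too narrow. Cd86 stood at 0.0879, 0.388 and 0.722 CPM in uninjured muscle, 7.07, 8.42 and 10.7 CPM at day 4, 3.10, 4.94 and 8.17 CPM at day 7, 1.88, 5.89 and 11.0 CPM at day 11, and 1.09, 2.64 and 4.81 CPM at day 15. No injured library overlapped the uninjured ones for either ligand. Cd86 changed by 4.49 ± 0.44, 3.76 ± 0.44, 3.90 ± 0.44 and 2.74 ± 0.44 on the log2 scale at days 4, 7, 11 and 15, and Cd80 by 4.87 ± 0.46, 4.73 ± 0.46, 4.50 ± 0.46 and 4.32 ± 0.46.

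Several of the lowest day 11 levels above are those of female replicate 3, the library that goes against its label. Among the other 5 libraries the lowest was 96.7 CPM for H2-Ab1, 202 CPM for H2-Aa, 116 CPM for H2-Eb1, 243 CPM for Cd74, 22.1 CPM for H2-DMa, 9.66 CPM for H2-DMb1 and 34.5 CPM for Ctss, and it was 2.78 CPM for Cd86. The log2 fold change at day 11 against uninjured muscle without it was 5.05 for H2-Aa, 4.20 for H2-Ab1, 4.79 for H2-Eb1, 4.37 for Cd74, 3.38 for H2-DMa, 4.09 for H2-DMb1, 2.08 for Ciita, 5.82 for Ctss, 4.64 for Cd80 and 4.09 for Cd86, and all 10 were again called higher.

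**Figure D2:**
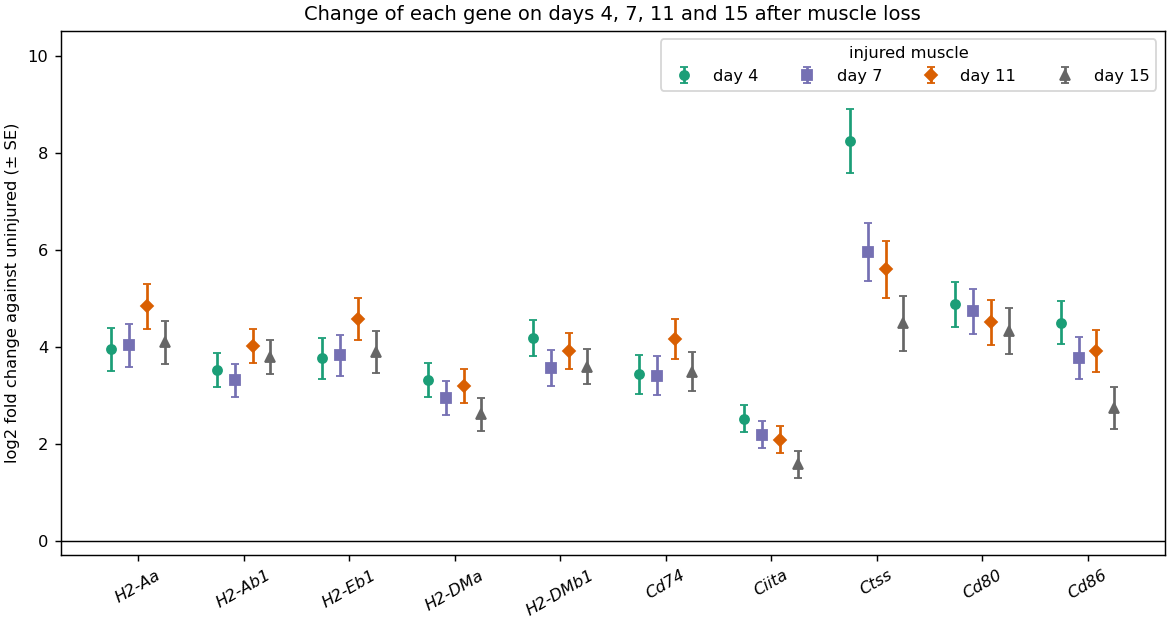
Log2 fold change of each gene against uninjured muscle at days 4, 7, 11 and 15, with bars of 1 SE from edgeR, for 6 injured and 6 uninjured libraries. Ctss has 8.25 at day 4 and 4.48 at day 15, while the 4 values of H2-Ab1 stay between 3.30 and 4.01.

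From day 4 to day 15 the fitted changes of the 10 genes ranged over -3.77 to 0.28 on the log2 scale. Ctss, Cd86 and Ciita were called lower at day 15, and the class II chains and Cd74 were not called. Ctss changed by -3.77 ± 0.53 on the log2 scale (edgeR adjusted p = 3.92e-06), Cd86 by -1.75 ± 0.37 (edgeR adjusted p = 0.000382) and Ciita by -0.93 ± 0.26 (edgeR adjusted p = 0.00438). Among all tested genes 27% were called lower in this comparison, so the count of 3 in 10 members lies near the background. H2-Ab1 differed by 0.28, with a 95% interval of -0.37 to 0.94, H2-Aa by 0.14 (-0.68 to 0.97), H2-Eb1 by 0.13 (-0.65 to 0.91) and Cd74 by 0.06 (-0.70 to 0.82). These intervals leave room for changes in either direction, so the chains are not shown to be level. With library size alone H2-Aa, H2-Eb1 and Cd74 took the other sign, at -0.10, -0.11 and -0.18. H2-DMa (-0.70, edgeR adjusted p = 0.0683), H2-DMb1 (-0.58, edgeR adjusted p = 0.119) and Cd80 (-0.55, edgeR adjusted p = 0.182) were lower at day 15 without passing the threshold. All 6 day 15 libraries lay below all 6 day 4 libraries for Ctss and Cd86. These are 2 of 10 members, a share near the 19.4% of tested genes. The members called lower numbered 5 with library size alone and 6 in a fit of these 2 times only, which added H2-DMa and H2-DMb1 in both and Cd80 in the second. Leaving out male day 15 replicate 1 also gave 5, with H2-DMa at -0.95 (edgeR adjusted p = 0.0215) and H2-DMb1 at -0.85 (edgeR adjusted p = 0.0312). With library size alone all genes split into 2773 higher and 6238 lower, in place of 4302 and 4632.

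Most of the fall of Ctss lay between day 4 and day 7, where it changed by -2.29 ± 0.50 (edgeR adjusted p = 0.0015), the 1 member called among 10, with 16.7% of tested genes called lower. The split of all genes in that comparison was 3174 higher and 2860 lower, and 2019 and 3438 with library size alone. Leaving out male day 7 replicate 2 also called Cd86, at -0.94 (edgeR adjusted p = 0.0483). Day 11 against day 7 gave 0 of 10 members in edgeR and 0 in DESeq2, 2 at an unadjusted p under 0.05 (H2-Ab1 and Cd74), and 0.0584% of all tested genes. H2-Ab1 differed there by 0.71 ± 0.32 and Cd74 by 0.77 ± 0.37. Day 15 against day 11 gave 0 of 10 in edgeR, 2 at an unadjusted p under 0.05 (Ctss and Cd86), 1 in DESeq2 (Cd86), and 4.24% of all tested genes. Without female day 11 replicate 3, the library that goes against its label, Ctss differed by -1.40 (edgeR adjusted p = 0.049) and Cd86 by -1.41 (edgeR adjusted p = 0.00979), and both were called lower at day 15. Cd86 was also called without male day 11 replicate 1 (-1.31, edgeR adjusted p = 0.041) and without male day 15 replicate 1 (-1.46, edgeR adjusted p = 0.0349).

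The unequal courses were tested within libraries, as log2 ratios of the counts of 2 genes, which do not depend on the scaling between libraries. An exact two-sided permutation test of 6 libraries against 6 has a smallest p of 0.00216, and p-values were adjusted over 35 tests of 7 ratios. The ratio of Ctss to H2-Ab1 counts averaged 0.226 ± 0.0815 in uninjured muscle, 6.16 ± 2.38 at day 4, 1.33 ± 0.645 at day 7, 0.597 ± 0.308 at day 11 and 0.331 ± 0.0709 at day 15 (SD, n = 6). It was thus high at day 4 in all 6 libraries, at 4.61 to 10.7, and lower in every library of days 7, 11 and 15. Against uninjured muscle it was 27.3-fold higher at day 4 and 5.57-fold higher at day 7 (exact permutation, adjusted p = 0.00583 for each), and 2.51-fold higher at day 11 (exact permutation, adjusted p = 0.012). At day 15 it was 1.52-fold higher (exact permutation, adjusted p = 0.056), which did not pass the threshold, and leaving out male uninjured replicate 2 or female uninjured replicate 2 moved it past (adjusted p = 0.0207 and 0.0379, exact permutation).

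Ciita fell behind the chain gene H2-Ab1 as the days went on. The ratio of Ciita to H2-Ab1 counts averaged 0.115 ± 0.0341 in uninjured muscle, 0.0561 ± 0.0115 at day 4, 0.0505 ± 0.0108 at day 7, 0.0364 ± 0.0216 at day 11 and 0.0265 ± 0.0136 at day 15. On the log2 scale the differences from uninjured muscle were -1.01, -1.15, -1.78 and -2.23 at days 4, 7, 11 and 15 (exact permutation, adjusted p of 0.00583 to 0.012). Day 15 against day 4 differed by -1.23 (exact permutation, adjusted p = 0.012), the libraries overlapping. H2-DMa also fell behind: its ratio to H2-Ab1 differed from uninjured muscle by -0.88 at day 11 and -1.21 at day 15 (exact permutation, adjusted p = 0.00583 for each), and by -0.24 and -0.40 at days 4 and 7, which did not pass. Between day 15 and day 4 it differed by -0.97 (exact permutation, adjusted p = 0.00583), with no overlap.

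The ratio of Cd74 to H2-Ab1 differed by at most 0.34 on the log2 scale in the 5 comparisons. It averaged 2.39 ± 0.300 in uninjured muscle, 2.23 ± 0.266 at day 4, 2.52 ± 0.354 at day 7, 2.53 ± 0.602 at day 11 and 1.90 ± 0.332 at day 15. Only the day 15 difference from uninjured muscle, -0.34 on the log2 scale, passed (exact permutation, adjusted p = 0.0344), and it was lost on leaving out any of 5 libraries: male uninjured replicate 1, female uninjured replicates 1 and 3, and female day 15 replicates 2 and 3, with exact permutation adjusted p of 0.0551 to 0.0659. The ratio of Cd86 to Cd80 averaged 2.42 ± 0.519 at day 4 and 1.05 ± 0.490 at day 15, a difference of -1.30 on the log2 scale for day 15 against day 4 (exact permutation, adjusted p = 0.00947). Against uninjured muscle, where Cd80 had 18 counts, none of the 4 differences of this ratio passed, with exact permutation adjusted p of 0.0821 to 0.838. Leaving out female uninjured replicate 3 moved the day 15 difference to -1.80 and past the threshold (exact permutation, adjusted p = 0.0253).

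Class II expression was then set against Ptprc, which encodes the pan-leukocyte surface phosphatase CD45, and Cd68, a lysosomal glycoprotein of macrophages. H2-Ab1 counts per Ptprc count averaged 10.8 ± 2.51 in uninjured muscle, 1.87 ± 0.594 at day 4, 3.49 ± 1.45 at day 7, 6.84 ± 2.05 at day 11 and 10.3 ± 3.24 at day 15. The day 4 libraries, at 0.911 to 2.69, lay below every uninjured library, at 8.05 to 14.8, whereas the day 15 libraries, at 7.48 to 15.5, overlapped them. Ptprc counts were low in the uninjured libraries, most of all in females, which limits the precision of the ratio there. Differences from uninjured muscle were -2.57, -1.69, -0.68 and -0.10 on the log2 scale at days 4, 7, 11 and 15, with exact permutation adjusted p of 0.00583, 0.00583, 0.0253 and 0.684. The ratio was 5.55-fold higher at day 15 than at day 4 (exact permutation, adjusted p = 0.00583), with no overlap.

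Relative to Cd68 the course was steeper. H2-Ab1 counts per Cd68 count averaged 7.92 ± 4.70 in uninjured muscle, 0.424 ± 0.0991 at day 4, 0.976 ± 0.279 at day 7, 2.52 ± 0.721 at day 11 and 4.38 ± 1.04 at day 15. Cd68 itself averaged only 1.93 ± 1.01 CPM in uninjured muscle, against 328 ± 30.6 CPM at day 4, so the uninjured ratio is imprecise. Differences from uninjured muscle were -4.05, -2.86, -1.49 and -0.67 on the log2 scale, with exact permutation adjusted p of 0.00583, 0.00583, 0.0152 and 0.143, and the last passed without female uninjured replicate 1 (-0.94, adjusted p = 0.0152, exact permutation). The ratio was 10.4-fold higher at day 15 than at day 4 (exact permutation, adjusted p = 0.00583). Of the 2 genes of each ratio, H2-Ab1 was not called between day 15 and day 4, while Ptprc changed by -2.20 and Cd68 by -3.02 on the log2 scale.

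**Figure D3:**
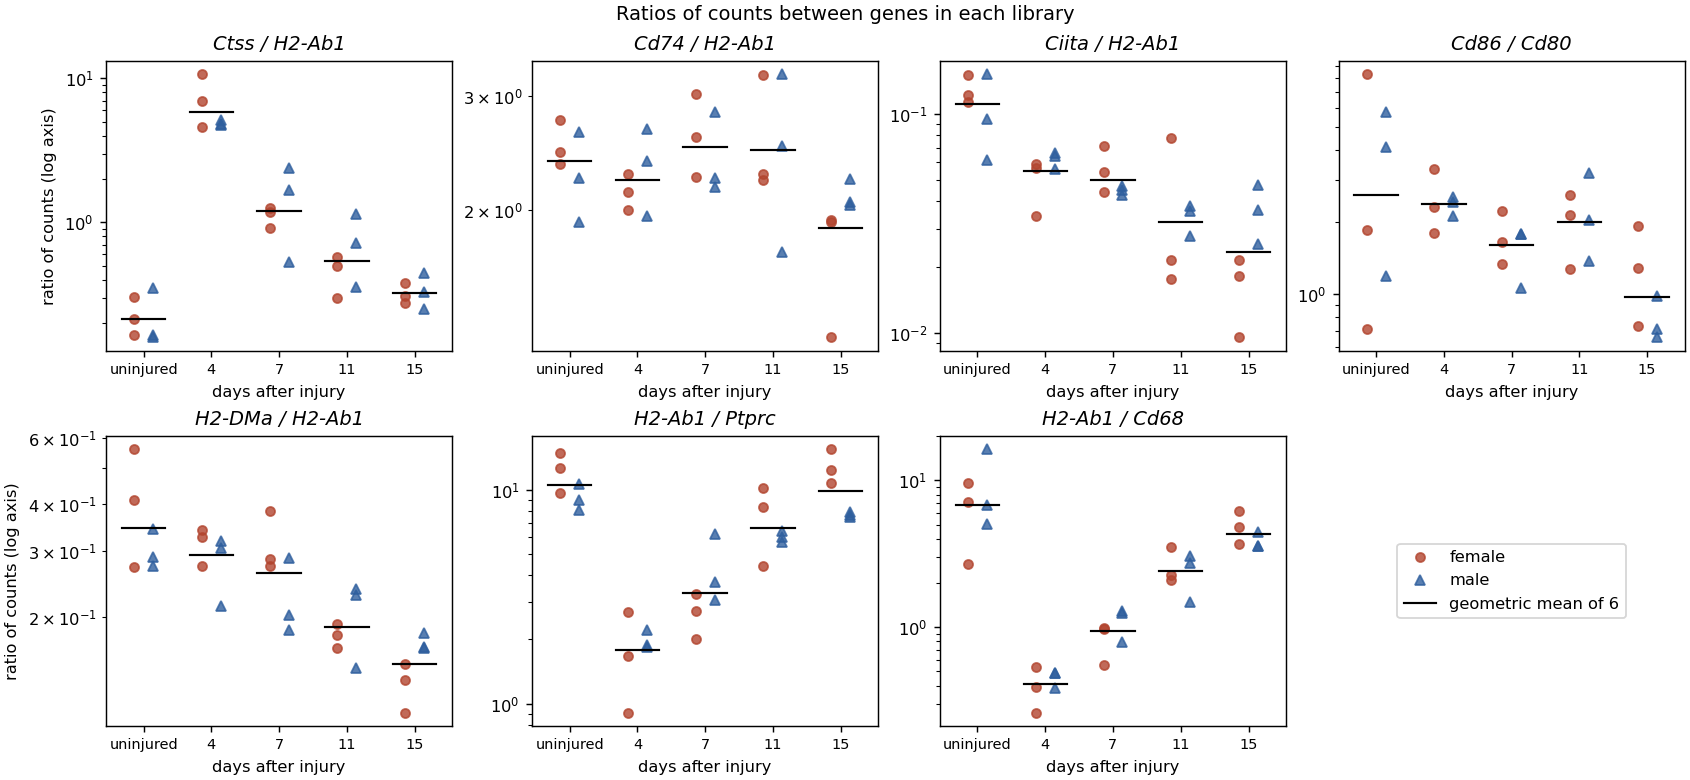
Ratio of the counts of 2 genes in each library, on a log axis, by time after injury (days). Circles are females, triangles males and bars geometric means of 6 libraries; Ctss to H2-Ab1 is highest at day 4, and H2-Ab1 to Ptprc and to Cd68 are lowest at day 4, when H2-Ab1 counts per Ptprc count are 0.911 to 2.69.

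The marker lists give the transcripts of other cell types that changed beside the class II genes. They do not count cells, and their part in the class II values was not tested. All 14 macrophage and monocyte markers were higher at days 4, 7 and 11 and 13 of 14 at day 15, and all 14 were lower at day 15 than at day 4 (median -2.41). Of all tested genes 40.1%, 41.6%, 42.7% and 39.7% were called higher at days 4, 7, 11 and 15, and 27% lower at day 15 against day 4. The summed level of the 14 ranged over 54.2 to 79.1 CPM in uninjured muscle, 3128 to 4575 CPM at day 4, 837 to 2869 CPM at day 7, 308 to 2897 CPM at day 11 and 354 to 1591 CPM at day 15, with none at 0 counts at any time. Fcgr1, the high-affinity IgG receptor, averaged 77.3 ± 12.3 CPM at day 4 and 0.262 ± 0.449 CPM in uninjured muscle, and the integrin Itgam 102.5 ± 30.7 CPM and 1.15 ± 0.585 CPM (SD, n = 6). The 6 pan-leukocyte markers were higher on all 4 days and all 6 were lower at day 15 than at day 4 (median -2.34).

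Dendritic cell markers also rose with injury. On each day 9 of 11 (81.8%) were higher than in uninjured muscle, beside 39.7% to 42.7% of all tested genes. Between day 15 and day 4, 3 were lower (27.3%), 1 was higher (9.09%) and the median was -0.51. Of all tested genes 27% were called lower and 25.1% higher there, so the share lower lies at the background. Their summed level was 12.6 to 21.4 CPM in uninjured muscle, 124 to 165 CPM at day 4 and 27.5 to 77.7 CPM at day 15, so that every day 15 library lay below every day 4 library. A large part of the day 4 sum was Itgax, so the sum does not stand for the list as a whole. Itgax, which macrophages also express, averaged 50.8 ± 12.6 CPM at day 4 and 0.271 ± 0.240 CPM in uninjured muscle, and the chemokine receptor Ccr7 3.27 ± 1.14 CPM and 0.146 ± 0.201 CPM. Irf4 was the member called higher at day 15 against day 4 (0.71), Itgax (-2.12), Flt3 (-1.95) and Irf8 (-2.11) those called lower, while Batf3 (0.65) and Cd209a (-0.25) were not called; apart from Itgax, Flt3 and Ccr7, these were picked after their values were seen.

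Of 8 B cell markers 2, 2, 3 and 3 were higher at days 4, 7, 11 and 15, shares of 25%, 25%, 37.5% and 37.5% that lie below those of all tested genes (40.1%, 41.6%, 42.7% and 39.7%), their summed level being 1.49 to 9.48 CPM in uninjured muscle, 11.7 to 20.1 CPM at day 4 and 6.63 to 15.3 CPM at day 15. Ms4a1, which encodes the B cell surface protein CD20, stood at no more than 0.886 CPM in any library, and Cd22, at 10.8 ± 2.14 CPM at day 4 against 0.372 ± 0.310 CPM in uninjured muscle, made up much of the sum. Of 10 tested genes for T cell receptors of class II and costimulation 7, 8, 10 and 7 were higher at days 4, 7, 11 and 15. Cd4, the coreceptor for class II, which macrophages and dendritic cells can also carry, averaged 15.3 ± 11.1 CPM at day 11 and 0.170 ± 0.190 CPM in uninjured muscle. The T cell receptor component Cd3g averaged 2.51 ± 2.42 CPM at day 11 and 0.0368 ± 0.0443 CPM in uninjured muscle, and Cd3d 2.07 ± 2.34 CPM and 0.0549 ± 0.0645 CPM.

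Muscle fibre markers fell with injury. All 8 fibre markers were lower at days 4, 7 and 11 and 7 of 8 at day 15, beside 33%, 29.9%, 29.7% and 29.3% of all tested genes called lower on those days. At day 15 against day 4, 6 of the 8 were higher (median 1.41), beside 25.1% of all tested genes. Creatine kinase, Ckm, averaged 1745 ± 792 CPM at day 4 and 28695 ± 5957 CPM in uninjured muscle. Within day 4 the library with least Ckm, female replicate 2 at 321 CPM against 1578 to 2567 CPM in the other 5, had the lowest level of 7 class II presentation genes and the highest of 2, Ctss and Cd80. The shares of all tested genes lowest or highest in that library were not counted. All 6 endothelial markers were higher at day 15 than at day 4 (median 1.01), beside 25.1% of all tested genes. Against uninjured muscle 3, 2 and 1 of the 6 were lower at days 4, 7 and 11, and 0 were higher. Of all tested genes 33%, 29.9% and 29.7% were called lower on those days. At day 15, 5 of 6 were higher than in uninjured muscle, beside 39.7% of all tested genes.

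Of other genes of class II loading and trafficking more than the background rose at day 4, and by day 15 about as many as among all genes. Of 15 tested, 11 were higher and 1 lower at day 4, 9 and 3 at day 7, 8 and 5 at day 11, and 7 and 5 at day 15, with medians of 2.40, 0.91, 0.75 and 0.23. The share higher was 73.3% at day 4 and 46.7% at day 15, against 40.1% and 39.7% of all tested genes, and the share lower at day 15 was 33.3%, against 29.3%. Marchf1, a ubiquitin ligase that removes class II from the cell surface, averaged 4.78 ± 2.75 CPM at day 11 and 0.382 ± 0.200 CPM in uninjured muscle, a log2 fold change of 3.67 ± 0.41 (edgeR adjusted p = 3.12e-08). Ifi30, the thiol reductase that unfolds antigens, rose by 2.35 ± 0.33 at day 11, and H2-Ob, a subunit of the H2-DM inhibitor H2-O, by 2.32 ± 0.32 from few counts. H2-Eb2 had 4 counts over the uninjured libraries and 334 at day 4, with a level of 0.848 ± 0.397 CPM. Among genes picked after their values were seen, the protease inhibitor Cst3 was lower on all 4 days (-1.30 at day 4 and -1.32 at day 15), and the protease Ctsl was higher at day 4 (1.34) and lower at day 15 (-0.79) than in uninjured muscle. At day 15 against day 4, 10 of the 15 were lower and none higher, beside 27% of all tested genes called lower, with a median of -1.71 against -0.02 for all tested genes.

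Genes that act at class II promoters, and those of interferon-gamma signalling, which is known to induce Ciita, were called about as often as genes in general. Of 18 tested, 7 were higher on each day, and 7, 6, 5 and 5 were lower at days 4, 7, 11 and 15, with medians of 0.24, 0.22, 0.18 and 0.12. The share higher, 38.9%, lies near the 39.7% to 42.7% of all tested genes, and the share lower, 27.8% to 38.9%, near their 29.3% to 33%. Nfyb, a subunit of the Y box factor NF-Y, averaged 15.0 ± 1.66 CPM at day 4 and 51.5 ± 11.2 CPM in uninjured muscle, a change of -1.78 ± 0.16. Tgfb1, a cytokine known to restrain class II expression, rose by 3.22 ± 0.22, to 100.2 ± 9.96 CPM at day 4, against 10.9 ± 2.28 CPM in uninjured muscle. Il10, an anti-inflammatory cytokine, had 0 counts in the uninjured libraries and 509 counts at day 4, at 1.27 ± 0.355 CPM. Ifng, which encodes interferon-gamma, was chosen after its values were seen: it had 0 counts in uninjured muscle, and averaged 0.147 ± 0.0973 CPM at day 4, 0.133 ± 0.0850 CPM at day 7, 0.324 ± 0.378 CPM at day 11 and 0.0378 ± 0.0422 CPM at day 15. Its levels overlapped between the injured days, and some libraries at each day had none. Irf1, a transcription factor of interferon signalling also chosen after its values were seen, was higher by 0.97 at day 4 and by 0.66 at day 15.

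Other costimulatory and coinhibitory ligands rose with injury and were lower again by day 15. Of 9 tested, 8 (88.9%) were higher at days 4, 7 and 11, and 7 (77.8%) were higher and 1 lower at day 15. Of all tested genes 39.7% to 42.7% were called higher on these days. All 9 were lower at day 15 than at day 4, with a median of -1.34, beside 27% of all tested genes called lower. Cd276 averaged 60.6 ± 11.4 CPM at day 4 and 6.87 ± 1.45 CPM in uninjured muscle, and Vsir, an inhibitory ligand of myeloid cells, 126 ± 20.9 CPM and 15.1 ± 3.23 CPM. Havcr2, an inhibitory receptor, had 4 counts over the uninjured libraries and 5153 at day 4, at 12.6 ± 2.52 CPM. Class I presentation genes, which serve CD8 T cells, were higher in 12, 8, 11 and 8 of 15 tested at days 4, 7, 11 and 15, with medians of 1.29, 0.75, 1.12 and 0.56. These are shares of 80%, 53.3%, 73.3% and 53.3%, against 40.1%, 41.6%, 42.7% and 39.7% of all tested genes, so that days 7 and 15 lie nearer the background. Among them B2m, the light chain of class I, averaged 520.1 ± 66.3 CPM at day 4 and 118 ± 47.7 CPM in uninjured muscle, and 9 of the 15 (60.0%) were lower at day 15 than at day 4, beside 27% of all tested genes.

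**Figure D4:**
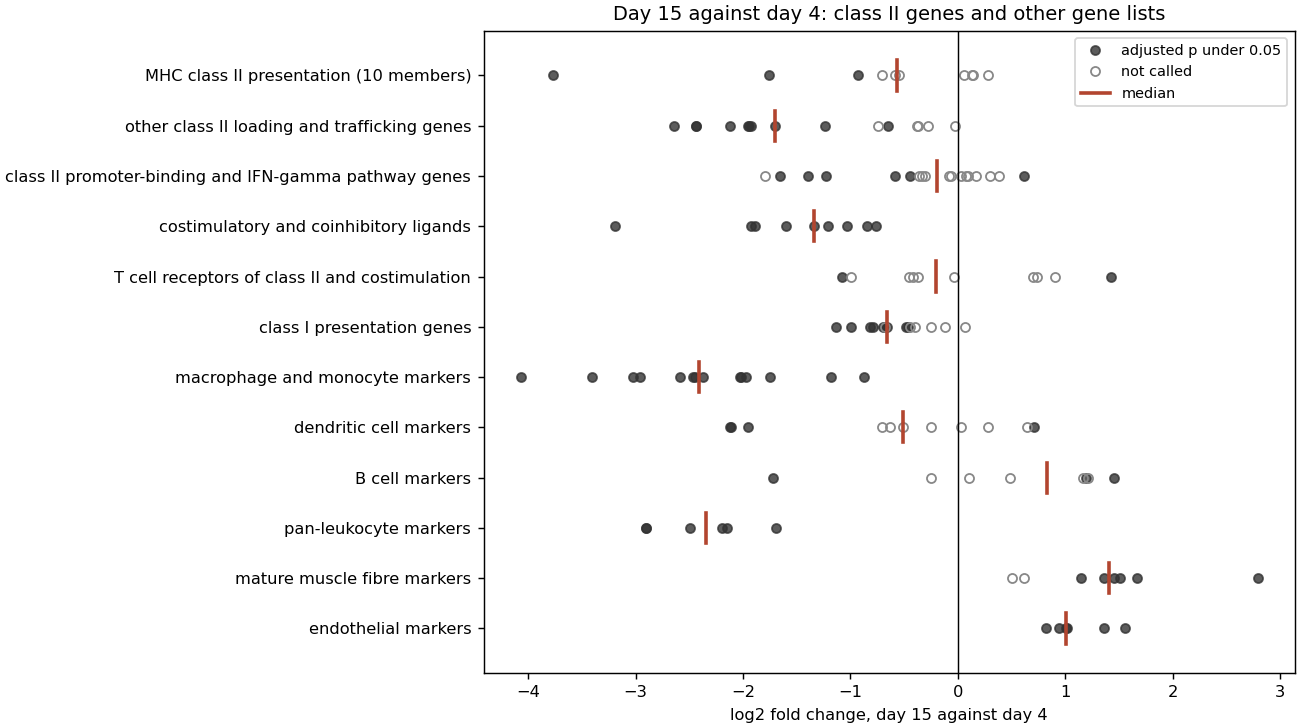
Log2 fold change at day 15 against day 4 for each tested gene of the 10 class II presentation genes and of 11 other lists; filled points passed an edgeR adjusted p of 0.05, open points did not, and red bars are medians. The macrophage and monocyte median is -2.41 and the class II presentation median -0.57.

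Females and males were compared in uninjured muscle, over the 4 injured days together and in their response at each day, and in the fit of all 30 libraries no gene of the 10 was called. In uninjured muscle all 10 means were lower in females, at 0.54 to 0.76 of the male mean, and for H2-Aa, H2-Ab1, H2-DMa, H2-DMb1 and Cd74 all 3 female libraries lay below all 3 male ones, as for 11.6% of tested genes. The median log2 difference of the 10 genes was -0.72, against -0.03 over all tested genes. H2-Ab1 stood at 6.62, 9.56 and 10.7 CPM in uninjured females and 12.1, 15.0 and 21.4 CPM in uninjured males. In edgeR 0 of 10 passed the threshold or an unadjusted p of 0.05, DESeq2 also called 0, and 0.642% of tested genes were called in either direction.

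The means of the sexes at single days are given as a description, since no test of females against males was made within a day. Female means were below male means for 9 of 10 genes at day 4 and 9 of 10 at day 7, and above them for 10 of 10 at days 11 and 15. The genes were measured in the same libraries, so these counts are not separate observations of each gene. The shares of all tested genes with such means were not counted. The female mean at day 11 includes replicate 3, whose sex-linked transcripts go against its label. Without it the day 11 mean of the other 2 female libraries was again above the male mean for 10 of 10 genes, at 1.41 to 2.89 times that mean, against 1.16 to 2.08 times with it. H2-Ab1 at day 11 stood at 71.3 CPM in that library and 264 and 448 CPM in the other females, and at 96.7, 158 and 179 CPM in males. At day 4 all 3 female libraries lay below all 3 male ones for H2-DMb1 and Ciita (4.62% of tested genes), and at day 15 all 3 lay above for H2-Aa, H2-Ab1, H2-DMa and H2-DMb1 (12.1% of tested genes). H2-Ab1 at day 15 stood at 197, 266 and 336 CPM in females and 65.0, 81.1 and 167 CPM in males. H2-Aa stood at 320.1, 335 and 472 CPM in females and 99.9, 132 and 319.8 CPM in males, so the groups came within 1 CPM of each other. H2-DMb1 stood at 16.8, 24.3 and 28.1 CPM in females and 6.59, 6.61 and 15.2 CPM in males. Male replicate 1 was the highest of the 3 males in each of these genes.

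The sex difference in the response, the female rise minus the male rise, was tested directly. At day 15 its log2 value was positive for all 10 genes, from 0.73 for Ciita to 2.20 for H2-Ab1, with a median of 1.71 against 0.08 over all tested genes. H2-Ab1 gave 2.20 ± 0.64 (edgeR adjusted p = 0.152) and H2-DMb1 2.16 ± 0.69 (edgeR adjusted p = 0.192). In edgeR 0 of 10 genes passed at each of the 4 days and in the joint test, while 7 had an unadjusted p under 0.05 at day 15, 3 at day 11, none at days 4 and 7, and 2 in the joint test. At day 11 H2-Ab1 gave 1.70 (edgeR adjusted p = 0.409) with the library that goes against its label and 2.15 (edgeR adjusted p = 0.191) without it, and 0 of 10 were called either way; the unadjusted counts are those with it. DESeq2 also called 0 at each day and jointly. Of all tested genes edgeR called 0.0467%, 0.123%, 0.0584% and 0.21% at days 4, 7, 11 and 15 and 0.035% jointly. A fit of only the 4 groups of that comparison called H2-Ab1 (2.20, edgeR adjusted p = 0.038) and H2-DMb1 (2.15, edgeR adjusted p = 0.0466) at day 15. Over the 4 injured days together 0 of 10 were called and none reached an unadjusted p of 0.05, DESeq2 called 0, and edgeR called 0.07% of all tested genes. These values include the library that goes against its label. Without it 0 of 10 were again called, there and in the joint test. H2-DMa then gave 0.53 (edgeR adjusted p = 0.163), against 0.42 (edgeR adjusted p = 0.504) with it.

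The single libraries at the extremes differed between days. How many of all tested genes were at their extreme in these libraries was not counted, so the counts are not particular to the 10 genes. At day 11 female replicate 2 had the highest level of all 10 genes among the 6 libraries, and female replicate 3, the library that goes against its label, the lowest of 8. At day 7 female replicate 1 had the lowest level of 9 genes and at day 15 female replicate 1 the highest of 9, while male day 15 replicate 3 had the lowest of 8. H2-Ab1 counts per Ptprc count at day 15 were 10.8, 12.4 and 15.5 in females and 7.48, 7.67 and 7.84 in males, a gap that was described and not tested.

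Genes whose course over the 10 groups of sex and time was nearest to that of H2-Ab1 were ranked by the root mean square difference of centred log2 CPM. Nearest was Cd74 (0.18), with H2-Eb1 second (0.22) and H2-Aa seventh (0.28), and H2-DMb1 (0.32) stood at rank 11. The others among the nearest 10 were P2ry10, Dpysl3, Sh3pxd2b, Antxr1, Fstl1, Gmfg and Tmem254a, at 0.24 to 0.31. H2-DMa followed at rank 92, Cd80 at 120, Cd86 at 689, Ciita at 1358 and Ctss at 11469. Among the genes nearest to Ctss were Gpnmb (0.30), C3ar1 (0.32), the complement anaphylatoxin receptor, Cd5l (0.34) and Pclaf (0.36). Nearest to Ciita were Rbm44, Tmem138, Arhgap25, Csk and Nostrin, at 0.18 to 0.21. These distances describe 10 group means of 30 shared libraries and carry no test.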

How the data were processed

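RNA was measured in 30 libraries of mouse tibialis anterior, 3 in each of 10 groups of sex and time, grouped by the labels. The deposited files hold whole-number counts per gene symbol and library. Reads were aligned with STAR to mm39 and edgeR was used, per the submitters' processing notes, with no versions; the counting program, annotation, strand handling and treatment of shared reads are stated in none of the sources read. RNA extraction and library construction were done by a commercial laboratory, per the labels' protocols.

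Genes were kept by filterByExpr, leaving 17136 and removing 9128 of 26264. Counts of all 30 libraries were fitted together, 1 mean per group, with edgeR 4.0.16 (TMM, glmQLFit, glmQLFTest, R 4.3.3), sexes weighted equally, and p-values were Benjamini-Hochberg adjusted over all tested genes, with calls at 0.05. SE values come from the same fit. The tests were checked on simulated counts in which a small part of the genes changed by known folds, equally often up and down. That check did not include the large shift in composition between uninjured and injured libraries. Ratios were log2((a + 0.5)/(b + 0.5)) of the counts per library with exact two-sided permutation tests. Among counts of 1 to 20, 65.5 to 77.5% were even, so a floor of 3 read pairs was taken as 6 counts. The lowest chi-square per degree of freedom between replicates of a group was 16.2, so no library was a copy of another in its group. Libraries of different groups were not compared in this way. Total counts per library set the precision, and counting intervals cover counting error only.

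The 10 genes and the 11 lists were chosen with earlier results of these data known. From each list the 3 called genes with the largest change on the day with most calls, at a mean CPM of at least 1, were named; other list genes are said to be picked after their values were seen. Alternatives were RLE factors, library size alone, no filter, CPM above 1 in 3 libraries, DESeq2 1.42.0, fits restricted to the groups compared, replicate number as a block, and each library left out in turn. Promoters come from RefSeq (GRCm38.p6), and motifs were searched on both strands. Some genes that the lists or the naming rule would give are not reported here.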

Additional observations from a re-analysis of the deposited data

Results flagged for a closer look

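At day 11 Cd74 stood at 1449 CPM in female replicate 2, far from the other 5 libraries of that day, by a gap rule for groups of 6 that chance alone trips in about 1 group in 20. It was the only one of 50 groups of 6, 10 genes at 5 times, to be picked out. The same library was the highest of the day in all 10 genes.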

How the results depend on the processing

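The 10 genes were called higher than in uninjured muscle on all 4 days under every alternative and without any single library. Scaling by RLE, both filters and the replicate block changed no member's call. The count called at day 15 against day 4 was 5 with library size alone and 6 with only the compared groups, and 3 to 5 when single libraries were left out. At day 15 against day 11 it was 1 in DESeq2 and 0 to 2 when single libraries were left out, and at day 7 against day 4 it was 1 to 2. The sex difference at day 15 gave 2 with only the compared groups; the joint test was not run so, and Cd80 gave no value there between the sexes of uninjured muscle. In none of the other contrasts did leaving out a library change the count. H2-Aa, H2-Eb1 and Cd74, none of them called, took the other sign at day 15 against day 4 with library size alone.

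For the ratios the replicate block is a test of 6 sign-flipped pairs, whose smallest adjusted p is 0.0521, so every ratio past the threshold lost it at the same difference, while 2 added counts or TMM-scaled CPM changed no ratio's call: Ctss to H2-Ab1 at 4.77, 2.48 and 1.33 (days 4, 7, 11) and -4.17 (day 15 against day 4); Ciita to H2-Ab1 at -1.01, -1.15, -1.78, -2.23 and -1.23; H2-DMa to H2-Ab1 at -0.88 (day 11), -1.21 and -0.97; Cd86 to Cd80 at -1.30; Cd74 to H2-Ab1 at -0.34 (adjusted p = 0.0951, exact permutation); H2-Ab1 to Ptprc at -2.57, -1.69, -0.68 and 2.47; and H2-Ab1 to Cd68 at -4.05, -2.86, -1.49 and 3.37. The labels do not say whether replicate numbers pair libraries. Residuals correlated at a mean r of 0.0125 over 135 pairs with the same number and -0.00633 over 270 pairs with different ones. Of the 30 libraries, 12 correlated best with a library sharing their number. These means pool pairs across sexes and days, so they cannot settle whether uninjured and injured libraries were paired. Leaving out single libraries, the day 15 differences from uninjured muscle ranged over 0.51 to 0.74 for Ctss to H2-Ab1, -0.40 to -0.23 for Cd74 to H2-Ab1, -0.94 to -0.42 for H2-Ab1 to Cd68 and -1.80 to -1.09 for Cd86 to Cd80, and these 4 changed call. Depth limits Cd80 and Cd86 most, with 18 and 58 counts over the 6 uninjured libraries.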
